A study of Mus musculus with 8 samples.

Results

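The 77 mouse genes that encode the proteins of the cytosolic ribosome were compared in regulatory T cells (Treg), which restrain other immune cells and carry the transcription factor Foxp3. The genes were taken by symbol: protein-coding genes named Rpl or Rps with a number (and at most the ending a, a1 or x), together with Rpsa, Rplp0, Rplp1 and Rplp2. They were 77 of the 19826 genes listed, 46 of the large subunit (Rpl) and 31 of the small subunit (Rps). CD4+ YFP+ cells had been sorted from spleen and peripheral lymph nodes of untreated C57BL/6 mice, and their polyadenylated RNA was sequenced. All mice were Foxp3 YFP-Cre/+, so Cre and YFP were made in cells that express this Foxp3 allele. The gene sits on the X chromosome, so in a female with 1 such allele only a part of the Treg carries active Cre. Each group had 4 libraries: Pdpk1 +/+ (WT 1 to WT 4) and Pdpk1 FL/FL, in which Cre removes the part of Pdpk1 between the loxP sites (labelled Pdpk1 KO, here KO 1 to KO 4). The sources used here do not state the sex of the mice, but Foxp3 YFP-Cre/+ at a gene on the X chromosome is a female genotype. They also do not give the age of the mice, or whether a library came from 1 mouse. The p-values therefore refer to the spread among these libraries, which may be technical.

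A ribosome is built from a small subunit, which reads the mRNA, and a large subunit, which joins amino acids. Nearly every ribosomal protein is present once per particle, and cells make the proteins in matched amounts. The mRNAs of mammalian ribosomal proteins carry a terminal oligopyrimidine (TOP) tract, a run of C and T that starts with C at the very first base, through which mTORC1 and the RNA-binding protein Larp1 control their translation. PDK1, the product of Pdpk1, phosphorylates kinases that act around this pathway, among them AKT and the S6 kinases, and the S6 kinases phosphorylate the ribosomal protein Rps6.

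The start sites are shown first because the TOP tract is the sequence that these genes are known for. RefSeq promoter windows on GRCm38.p6 were matched by symbol for 57 of the 77 genes. Among the other 20 are Rpl3, Rpl23a, Rpl32, Rplp1, Rps14, Rps20, Rps27a and Rps29. Each line gives 30 bases, 15 on either side of the annotated start, 5′ to 3′ on the gene's strand, with the pyrimidine tract in capitals. The first 6 genes rose in the libraries labelled Pdpk1 KO, and the last, Rps2, had the lowest log2 change of the 77.
Rps6 (chr4:86857353-86857382, minus strand): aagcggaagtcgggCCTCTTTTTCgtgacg
Rpl7a (chr2:26910792-26910821, plus strand): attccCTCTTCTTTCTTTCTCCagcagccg
Rpl15 (chr14:18270972-18271001, minus strand): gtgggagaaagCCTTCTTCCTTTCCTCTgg
Rpl35 (chr2:39005117-39005146, minus strand): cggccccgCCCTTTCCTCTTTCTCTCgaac
Rpl14 (chr9:120571502-120571531, plus strand): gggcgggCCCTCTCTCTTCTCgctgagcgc
Rpl18 (chr7:45718056-45718085, plus strand): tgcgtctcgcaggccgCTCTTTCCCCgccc
Rps2 (chr17:24720048-24720077, plus strand): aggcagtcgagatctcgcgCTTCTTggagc
A tract was counted where at least 5 pyrimidines beginning with C started within 10 bases of an annotated start. It was present in 34 of the 57 genes (59.6%), in 37.3% of the 9544 other tested genes with a window and in 30.7% of all 32851 windows. Rpl5, Rplp0 and Rps3, which also rose, had no such tract at the start that RefSeq annotates:
Rpl5 (chr5:107900513-107900542, plus strand): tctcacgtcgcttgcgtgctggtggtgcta
Rplp0 (chr5:115559452-115559481, plus strand): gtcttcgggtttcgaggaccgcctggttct
Rps3 (chr7:99483695-99483724, minus strand): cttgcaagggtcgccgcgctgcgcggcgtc
The median log2 change was 0.44 both in the 34 genes with the tract and in the 23 without it. Of the 34 and the 23 genes, 11 and 6 rose, a difference that was not tested. Long tracts also stood in genes that did not pass, such as Rps10 (13 bases, log2 change 0.28) and Rpl34 (13 bases, 0.31). After the windows had been read, 3 more motifs were searched on both strands of the whole 300-base window: CCGGAAGT (the core bound by ETS factors), CACGTG (the E-box bound by Myc and Max) and GCCATNTT (the core of the YY1 motif). CCGGAAGT was found in 11 of the 57 genes (19.3%) and in 9.58% of the other tested genes. GCCATNTT was found in 11 (19.3%) and in 10.2%, and CACGTG in 6 (10.5%) and in 11.8%. Genes with CCGGAAGT included Rps6, Rpl26 and Rpl41, shown with the motif in capitals:
Rps6 (chr4:86857440-86857469, minus strand): ttaatctacgcCCGGAAGTaacgcccctct
Rpl26 (chr11:68901559-68901588, plus strand): aacttacagaaCCGGAAGTcgcgtgtagtt
Rpl41 (chr10:128549206-128549235, minus strand): tagtaaggcagCCGGAAGTcgctgtctcga
The motif stood upstream of the annotated start in Rps6 and Rpl41 and just inside it in Rpl26. The log2 changes were 0.60 for Rps6, 0.56 for Rpl26 (not past the threshold) and 0.24 for Rpl41 (not past it). The median log2 change was 0.43 in genes with CCGGAAGT and 0.46 in those without. It was 0.39 and 0.47 for GCCATNTT, and 0.42 and 0.44 for CACGTG. Of the genes with CCGGAAGT, GCCATNTT and CACGTG, 2, 0 and 1 rose, beside 15, 17 and 16 of those without. These differences were not tested.

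The libraries held between 17448095 and 26299577 gene reads. Values below are normalized counts, which are gene read counts divided by a size factor of the library, and log2 changes are labelled Pdpk1 KO minus WT on the log2(normalized count + 1) scale, with the standard error. Foxp3 marked the cells of both groups, at 5086 ± 740 and 5355 ± 743 (SD, n = 4 each). Pdpk1 itself was at 2223 ± 320 and 1983 ± 365 (log2 change -0.17 ± 0.13, limma adjusted p = 0.491). Reads from exons outside the loxP sites still count toward this gene, so its total does not check the labels. Of 20 listed macrophage markers 18 could be tested, and 8 rose and 1 (Axl) fell, which is taken up again at the end.

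On average, reads of ribosomal protein mRNA took a larger share where the label was Pdpk1 KO. The 77 genes took 9.60%, 12.0%, 13.7% and 12.7% of all gene reads in WT 1 to WT 4, and 12.5%, 16.9%, 16.0% and 16.1% in KO 1 to KO 4. KO 2 to KO 4 lay above every WT library, while KO 1 lay between WT 2 and WT 4. The group means were 12.0 ± 1.74% and 15.4 ± 1.97% (SD, n = 4 each). In RNA from a bulk sort, fewer cells of a type and less RNA per cell cannot be told apart.

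**Figure D1:**
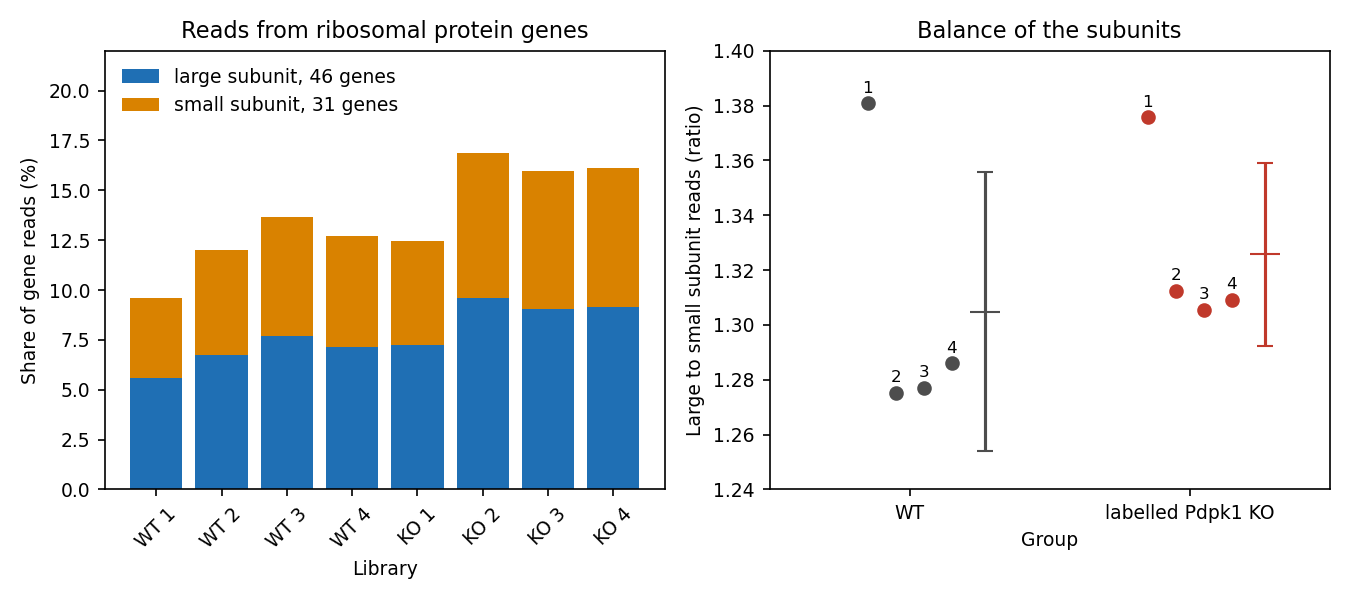
Left, share of gene reads (%) from large subunit genes (blue) and small subunit genes (orange) in each library, stacked from 0. Right, ratio of large to small subunit reads, 1 point per library with its number, and the group mean ± SD beside it (the axis does not start at 0). The total runs from 9.60% in WT 1 to 16.9% in KO 2, and replicate 1 of each group has the highest ratio, 1.38.

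All 77 genes passed the filter on low values, and all 77 had a positive log2 change. Of these 20 rose (limma, Benjamini-Hochberg over 13847 genes, adjusted p under 0.05), 0 fell and 57 did not pass the threshold. Over all tested genes 4.41% rose and 5.06% fell. At an unadjusted limma p under 0.05, 59 of the 77 were higher and 0 lower, and no member was lower by edgeR or DESeq2 either. How many of all tested genes reached this unadjusted level is not given, here or for the lists below. The log2 changes ran from 0.20 (Rps2) to 0.60 (Rps6) with a median of 0.46, a 1.38-fold difference, against a median of -0.01 over all tested genes. The groups did not overlap, with every KO library above every WT library, in 9 of the 77 (11.7%), against 7.06% of all tested genes. These 9 were Rpl3, Rpl4, Rpl5, Rpl6, Rpl10a, Rpl18, Rplp0, Rps6 and Rps7. In another 64 genes exactly 3 of the KO libraries lay above every WT library, and the share of all tested genes with that pattern is not given here.

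**Figure D2:**
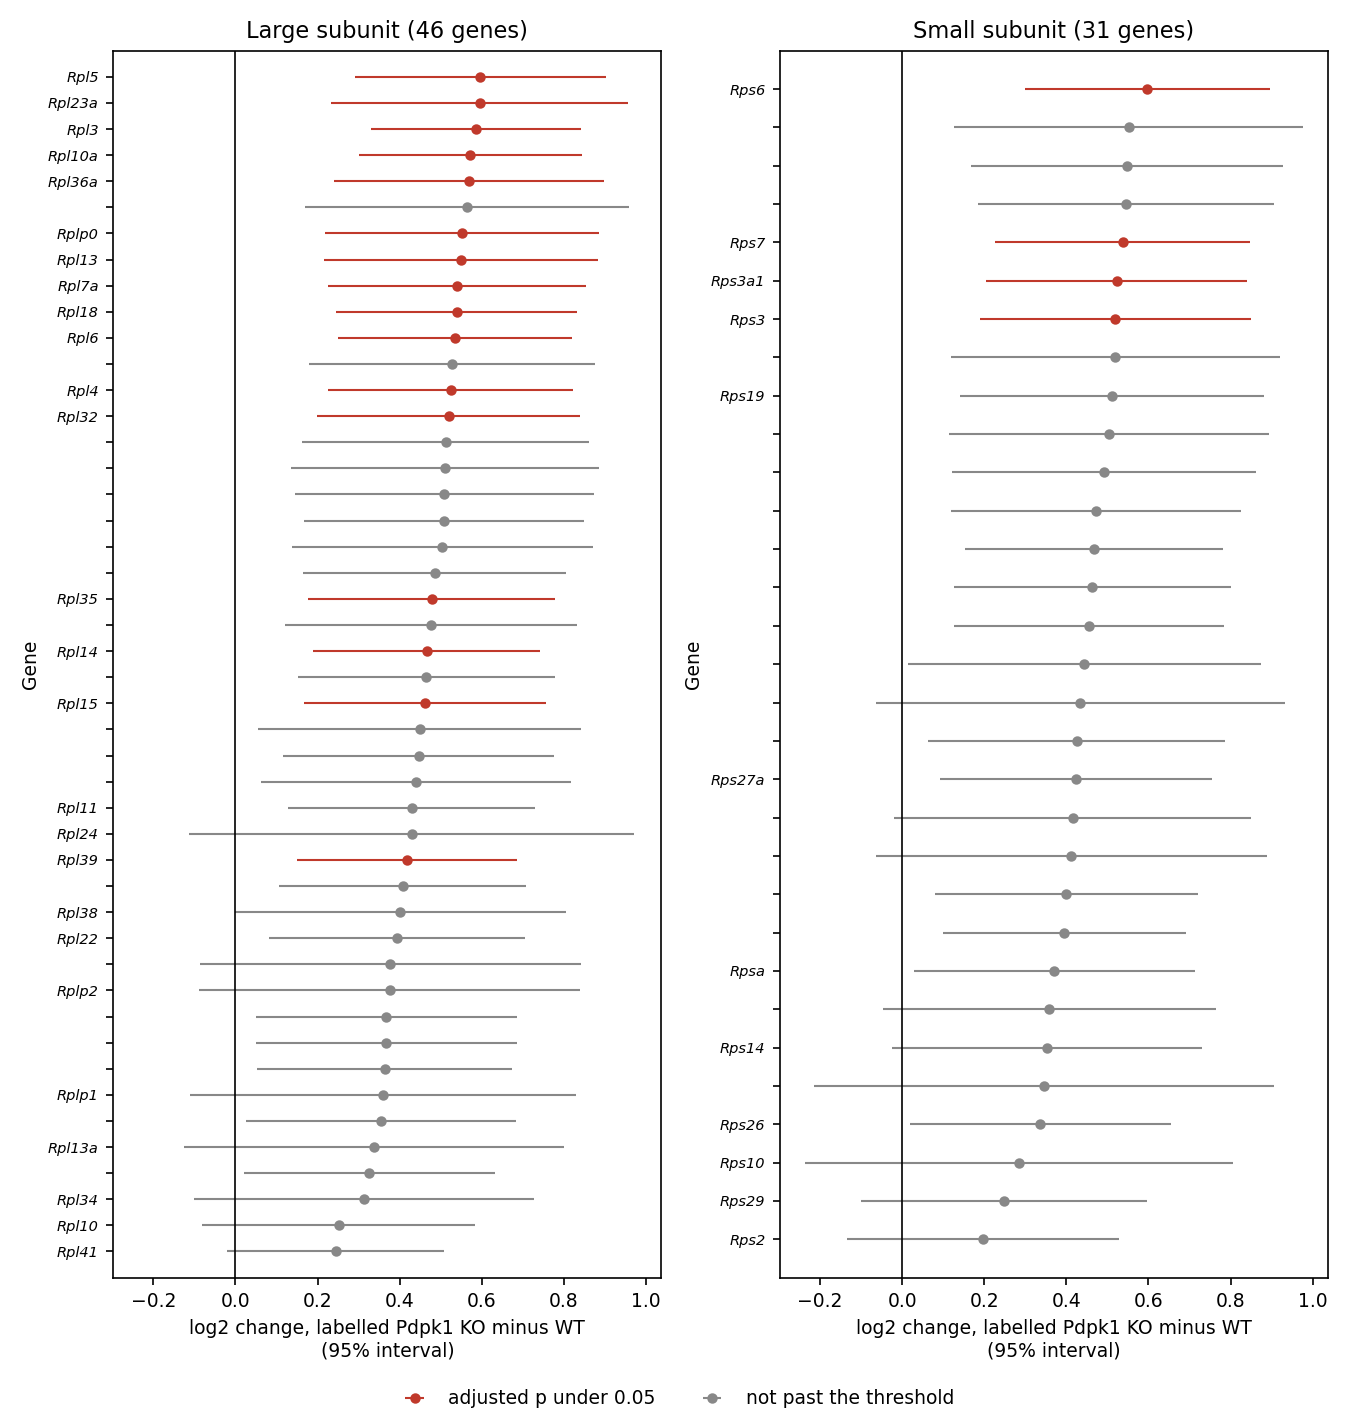
Log2 change of every gene (labelled Pdpk1 KO minus WT, points) with its 95% interval (bars), large subunit left and small subunit right, ordered by change. Red marks the 20 genes with an adjusted p under 0.05, and labels are given for these and for genes described in the text. Every point lies above 0, from 0.20 for Rps2 to 0.60 for Rps6.

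The same libraries were low or high for almost every gene. WT 1 was the lowest of the 8 libraries in 75 of the 77 genes, the exceptions being Rpl41 and Rps10. KO 2 was the highest in 72 genes and KO 4 in the other 5. Within its own group KO 1 was the lowest in 76 genes, and WT 3 was the highest WT library in 75. The within-group SD of a gene had a median of 0.27 on the log2 scale. It was 0.07 after the mean of the 77 genes in each library had been subtracted, so most of the spread between replicates was shared by the whole set.

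The number of genes called depended on which libraries were included. It was 5 without WT 1, 4 without WT 2, 34 without WT 3 and 5 without WT 4, while the share of all tested genes called higher was 3.81%, 3.62%, 3.57% and 2.81%. It was 58 without KO 1, 3 without KO 2, 3 without KO 3 and 6 without KO 4, beside 4.25%, 3.05%, 2.85% and 3.99% of all tested genes. The 3 calls without KO 2 or KO 3 are 3.90% of the 77, and the 4 without WT 2 are 5.19%, close to the share over all genes in those fits. The 5 or 6 calls without WT 1, WT 4 or KO 4 are 6.49% or 7.79%, whereas 34 and 58 are 44.2% and 75.3%. All 77 log2 changes stayed positive in each of these 8 fits. Scaling each library to its reads outside the 77 genes gave 18 calls and again 77 positive changes, and it moved the calls over all genes from 611 higher and 700 lower to 488 higher and 851 lower. Quantile normalization left 9 calls (11.7% of the 77, beside 4.53% of all tested genes) and a median log2 change of 0.16. It turned 4 genes negative, none past the threshold: Rps2 (-0.17), Rpl10 (-0.03), Rpl41 (-0.02) and Rplp1 (-0.01).

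**Figure D3:**
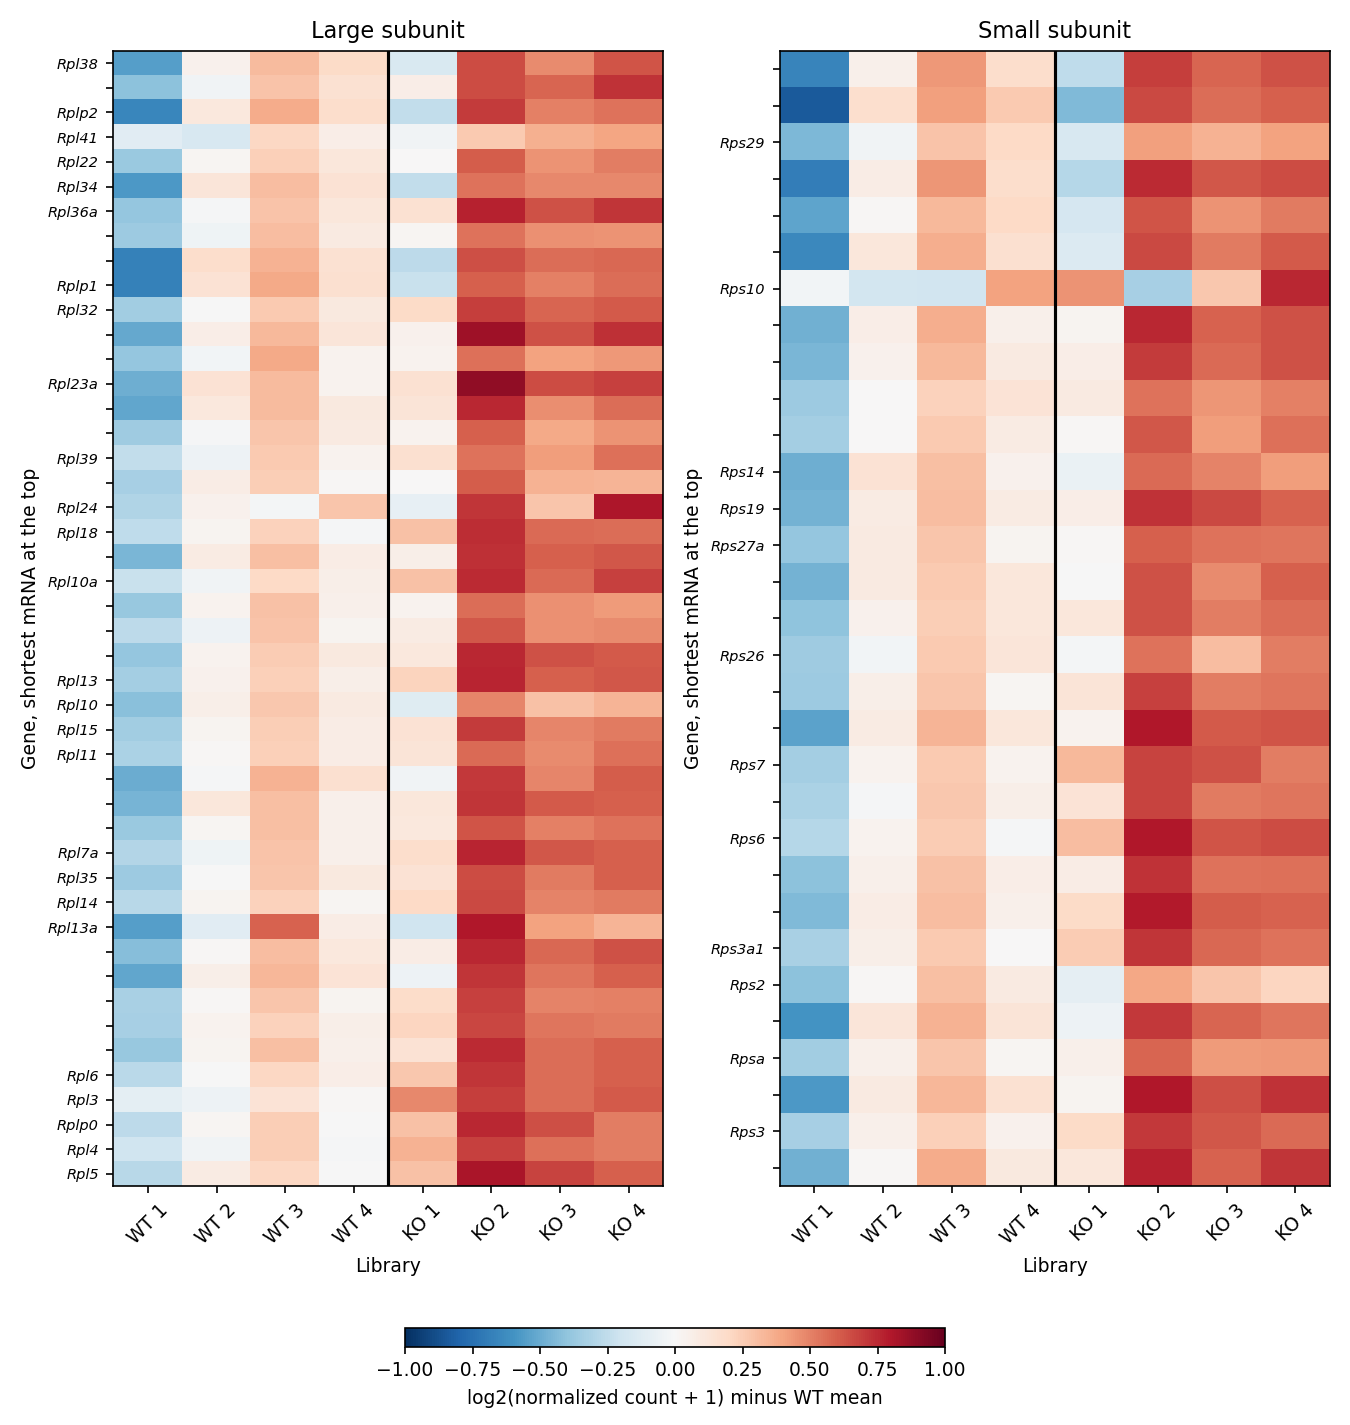
Each row is a gene and each column a library. Colour gives log2(normalized count + 1) minus the gene's WT mean, from -1 (blue) to 1 (red), with the shortest mRNA at the top. WT 1 is blue in nearly every row and KO 2 dark red, and KO 1 runs from blue in short genes such as Rplp2 to red in longer ones such as Rpl3. Labels are given for genes that rose or are described in the text.

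Rps6 is the ribosomal protein that the S6 kinases phosphorylate, and with Rpl5 it had the highest log2 change of the 77. Rps6 (ENSMUSG00000028495, chr4:86854660-86857412) was measured at 28083, 35156, 40920.1 and 33986 normalized counts in WT 1 to WT 4 and 42509, 59522, 52899 and 53714 in KO 1 to KO 4. Every KO library lay above every WT library, with a log2 change of 0.60 ± 0.14 (limma adjusted p = 0.013). Among the genes that act on ribosomal protein mRNAs or on Rps6, 1 of 19 rose and 0 fell (limma; 3 higher and 2 lower at an unadjusted p under 0.05). Over all tested genes 4.41% rose, and 1 of 19 is near that share. The one that rose was Larp1, the binding protein of the TOP tract, at 8908 ± 575 in WT and 12684 ± 770 in KO 1 to KO 4 (SD, n = 4 each; log2 change 0.51 ± 0.09, limma adjusted p = 0.00204). Its limma adjusted p rose to 0.0577 when the mean level of macrophage markers was a covariate, and to 0.0738 when KO 2, KO 3 and WT 2, where that mean was highest, were left out. The S6 kinase genes did not pass: Rps6kb1 had a log2 change of 0.07 ± 0.13 and Rps6kb2 one of -0.50 ± 0.19, with limma adjusted p of 0.814 and 0.120.

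Rpl5 and Rpl11 assemble with 5S ribosomal RNA into the central protuberance of the large subunit, and outside the ribosome they bind Mdm2, the ligase that degrades p53. Rpl5 (ENSMUSG00000058558, chr5:107900502-107909005) stood at 35266, 45338, 49333 and 42687 normalized counts in WT 1 to WT 4 and 52537, 75509, 68560 and 64726 in KO 1 to KO 4. The groups did not overlap, and the log2 change of 0.60 ± 0.14 passed the test (limma adjusted p = 0.0155). Rpl11 (ENSMUSG00000059291, chr4:136028265-136053428) was at 28566, 35862, 41967 and 37588 normalized counts in WT 1 to WT 4 and 39085, 52729, 49451 and 52164 in KO 1 to KO 4. KO 1 lay inside the WT range and the other KO libraries above it, and the log2 change of 0.43 ± 0.14 did not pass (limma adjusted p = 0.0715). Of 19 tested genes of p53 and its targets, 1 rose and 0 fell (limma; 3 higher and 1 lower at an unadjusted p under 0.05), with a median log2 change of -0.04. The count of 1 in 19 is near the share of all tested genes that rose, 4.41%. The one that rose was Bbc3, which encodes the death-promoting BCL2 family member PUMA, with a log2 change of 0.63 ± 0.16 (limma adjusted p = 0.0211). It did not pass without WT 1, WT 3, KO 2 or KO 3, each left out alone, or in either of the fits that take account of macrophage markers. Mdm2 had 0.11 ± 0.10 and Trp53 0.33 ± 0.11, neither past the threshold.

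The stalk of the large subunit, built from Rplp0 with Rplp1 and Rplp2, recruits the elongation factors. Rplp0 (ENSMUSG00000067274, chr5:115559467-115563727), the base of the stalk, was measured at 71268, 86556, 101156 and 85363 normalized counts in WT 1 to WT 4 and 104838, 144308, 133196 and 122106 in KO 1 to KO 4. It rose with a log2 change of 0.55 ± 0.16 (limma adjusted p = 0.0366), and no KO library fell within the WT range. The acidic arms differed from it in KO 1. Rplp1 (ENSMUSG00000007892, chr9:61913284-61914542) was at 29868, 52895, 62140 and 53309 normalized counts in WT 1 to WT 4 and 41035, 72419, 67712 and 70402 in KO 1 to KO 4. Rplp2 (ENSMUSG00000025508, chr7:141447370-141451585) was at 18447, 31191, 37505 and 32645 normalized counts in WT 1 to WT 4 and 24470, 47055, 41094 and 42143 in KO 1 to KO 4. For both, KO 1 lay below WT 2, WT 3 and WT 4, and the other KO libraries lay above all WT libraries. Neither passed, with log2 changes of 0.36 ± 0.22 for Rplp1 and 0.38 ± 0.22 for Rplp2 (limma adjusted p of 0.371 and 0.339).

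The large subunit genes with the smallest adjusted p were Rpl3 and Rpl10a, followed by Rpl5, Rpl6 and Rpl18. Rpl3, which lies by the centre where peptide bonds form (ENSMUSG00000060036, chr15:80077791-80091868), was measured at 47705, 49199, 56093 and 51386 normalized counts in WT 1 to WT 4 and 71013, 82543, 74989 and 78025 in KO 1 to KO 4. It had the smallest adjusted p and the smallest standard error of the 77 genes, with a log2 change of 0.59 ± 0.12 (limma adjusted p = 0.00559). Rpl10a, a protein of the stalk opposite the P proteins (ENSMUSG00000037805, chr17:28328471-28331033), was at 20686, 23547, 27729 and 25159 normalized counts in WT 1 to WT 4 and 29595, 40543, 35665 and 38801 in KO 1 to KO 4. Its log2 change of 0.57 ± 0.13 passed with a limma adjusted p of 0.00938. Rpl6 (ENSMUSG00000029614, chr5:121204481-121209241), a protein of the subunit's outer surface, was at 28679, 34315, 39888 and 36037 normalized counts in WT 1 to WT 4 and 41612, 56599, 50805 and 52053 in KO 1 to KO 4. Rpl18 (ENSMUSG00000059070, chr7:45715457-45720836), another protein of the large subunit, was at 37063, 45017, 51859.6 and 43898 normalized counts in WT 1 to WT 4 and 54076, 73701, 65492 and 64891 in KO 1 to KO 4. For these 4 genes the lowest KO library, KO 1, was above the highest WT library, WT 3. The log2 changes of Rpl6 and Rpl18 were 0.53 ± 0.13 and 0.54 ± 0.14 (limma adjusted p of 0.0194 and 0.0215). The other large subunit genes past the threshold were Rpl4, Rpl7a, Rpl13, Rpl14, Rpl15, Rpl23a, Rpl32, Rpl35, Rpl36a and Rpl39, with log2 changes between 0.42 (Rpl39) and 0.59 (Rpl23a).

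In the small subunit 4 genes passed. Besides Rps6 they were Rps7, Rps3a1 and Rps3. Rps7 (ENSMUSG00000061477, chr12:28630854-28635953), a protein of the body of the subunit, was at 41920.3, 54374, 63484 and 54286 normalized counts in WT 1 to WT 4 and 66299.5, 84609, 82341 and 75358 in KO 1 to KO 4. Its groups did not overlap, with a log2 change of 0.54 ± 0.15 (limma adjusted p = 0.0298). Rps3a1 (ENSMUSG00000028081, chr3:86137940-86142702), which lies on the platform side where initiation factors bind, was at 43899, 56982, 65715 and 54944 normalized counts in WT 1 to WT 4 and 65504, 89879, 81577 and 80052 in KO 1 to KO 4. Rps3 (ENSMUSG00000030744, chr7:99477896-99483738), at the entry of the mRNA channel, was at 44474, 58053, 66045 and 57661 normalized counts in WT 1 to WT 4 and 63843, 91345, 86028 and 82720.3 in KO 1 to KO 4. In both of these KO 1 was just below WT 3 and above the other WT libraries. Their log2 changes were equal at 0.52 ± 0.15, with limma adjusted p of 0.0387 for Rps3a1 and 0.0469 for Rps3.

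Several small subunit genes with known roles did not pass. Rpsa, which also occurs as a laminin receptor (ENSMUSG00000032518, chr9:120127689-120132369), was at 53969, 71179, 83044 and 69597 normalized counts in WT 1 to WT 4 and 71045, 102540, 92109.7 and 92551 in KO 1 to KO 4. Rps19, the gene most often mutated in Diamond-Blackfan anaemia (ENSMUSG00000040952, chr7:24884371-24889806), was at 23339.9, 34249, 40121 and 34289 normalized counts in WT 1 to WT 4 and 33995, 53342, 51250.2 and 48727 in KO 1 to KO 4. Rps26, another gene of that disease, at the exit of the mRNA channel (ENSMUSG00000025362, chr10:128624534-128626747), was at 17834, 22372, 27295 and 24741 normalized counts in WT 1 to WT 4 and 22461, 33176, 28227 and 32549 in KO 1 to KO 4. These values keep the library order of the whole set, with WT 1 lowest and KO 2 highest. Rps27a, made as a fusion with ubiquitin (ENSMUSG00000020460, chr11:29545846-29548109), was at 16874, 23549, 26739 and 22469 normalized counts in WT 1 to WT 4 and 22267, 33526, 32252 and 32097 in KO 1 to KO 4. In each of these 4 genes KO 1 lay inside the WT range and KO 2, KO 3 and KO 4 above it. Their log2 changes were 0.37 ± 0.16 for Rpsa, 0.51 ± 0.17 for Rps19, 0.34 ± 0.15 for Rps26 and 0.42 ± 0.16 for Rps27a. The limma adjusted p were 0.177, 0.0821, 0.189 and 0.107.

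Large subunit genes with roles of their own were also below the threshold. Rpl22, needed for the development of alpha-beta T cells (ENSMUSG00000028936, chr4:152325742-152334071), was at 10748, 14092, 16344 and 14981 normalized counts in WT 1 to WT 4 and 13924, 21166, 18899.5 and 19819 in KO 1 to KO 4. Rpl38, which in the mouse embryo favours translation of Hox mRNAs (ENSMUSG00000057322, chr11:114668524-114672331), was at 5858, 8875, 10721 and 9831 normalized counts in WT 1 to WT 4 and 7747, 13498, 11952 and 13339 in KO 1 to KO 4. Rpl10, which joins the large subunit late in its assembly (ENSMUSG00000008682, chrX:74270812-74273135), was at 19678, 27262, 31661 and 27853 normalized counts in WT 1 to WT 4 and 24166, 36882, 32081 and 33185 in KO 1 to KO 4. In each, KO 1 was above WT 1 and below the other WT libraries. The log2 changes were 0.39 ± 0.15 for Rpl22, 0.40 ± 0.19 for Rpl38 and 0.25 ± 0.16 for Rpl10 (limma adjusted p of 0.112, 0.220 and 0.376).

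Rpl10 was also among the 3 large subunit genes with the lowest log2 changes, together with Rpl41 and Rpl34. Rpl41 encodes the shortest of the ribosomal proteins (ENSMUSG00000093674, chr10:128548114-128549305) and was at 23456, 22779, 29343 and 26627 normalized counts in WT 1 to WT 4 and 24854, 30424, 32552 and 33347 in KO 1 to KO 4. Rpl34 (ENSMUSG00000062006, chr3:130726831-130730398) was at 13761, 22230.4, 25344 and 22646 normalized counts in WT 1 to WT 4 and 17248, 29867, 28518 and 28488 in KO 1 to KO 4. The spread of Rpl41 was small, and its KO libraries 2 to 4 still lay above all WT libraries, whereas KO 1 of Rpl34 was far below the rest of its group. The log2 changes were 0.24 ± 0.12 for Rpl41 and 0.31 ± 0.19 for Rpl34 (limma adjusted p of 0.262 and 0.375). In the small subunit the lowest were Rps2, Rps29 and Rps10. Rps2, a protein by the mRNA entry (ENSMUSG00000044533, chr17:24718116-24721929), was at 34004, 45439, 55617 and 48118 normalized counts in WT 1 to WT 4 and 42355, 58974, 54573 and 52349.7 in KO 1 to KO 4. Rps29 (ENSMUSG00000034892, chr12:69157722-69159186), a zinc-binding protein of the head of the subunit, was at 14739.6, 19734, 24616 and 23155 normalized counts in WT 1 to WT 4 and 18046, 26748, 25621 and 26674 in KO 1 to KO 4. Of the KO libraries of Rps2, KO 2 alone lay above WT 3, the highest WT library. The log2 changes were 0.20 ± 0.16 for Rps2 and 0.25 ± 0.16 for Rps29 (limma adjusted p of 0.503 and 0.405). Relative to the mean of the 77 genes in each library, the differences between the groups ran from -0.25 (Rps2) to 0.15 (Rps6), and 20 genes lay more than 0.1 from 0 on this log2 scale.

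The large and the small subunit differed little in size of change. The median log2 change was 0.47 in the 46 large subunit genes and 0.44 in the 31 of the small subunit, and 16 and 4 of them rose. The median standard error was 0.15 and 0.17. The ratio of large to small subunit reads was 1.38, 1.28, 1.28 and 1.29 in WT 1 to WT 4 and 1.38, 1.31, 1.31 and 1.31 in KO 1 to KO 4. The groups overlapped through WT 1, and the means of 1.30 ± 0.05 and 1.33 ± 0.03 (SD, n = 4 each) differed by less than the SD of WT. Whether the subunits differ in the number of genes called was not tested.

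The median log2 change was larger in genes with longer mRNAs. The 77 mRNAs were between 271 and 3706 bases long in GENCODE, and genes were split into the 38 shorter (up to 681 bases) and the 39 longer (from 729 bases) after the values had been seen. The median log2 change was 0.41 in the shorter and 0.51 in the longer genes, and 5 and 15 of them rose. All 4 small subunit genes that rose were among the longer ones, as were 11 of the 16 of the large subunit. Over the 77 genes Spearman's rho between length and log2 change was 0.46, a description of genes that share the same 8 libraries. It was 0.31 when the longest instead of the shortest principal transcript gave the length. Between a gene's mean log2 level and its log2 change rho was 0.43, and length and level were not told apart. The replicates numbered 1 showed a like gradient within each group: rho between length and the deviation of replicate 1 from the other replicates was 0.38 for WT 1 and 0.44 for KO 1. Mean log2 level of the longer minus the shorter genes was 1.07, 0.97, 0.99 and 0.93 in WT 1 to WT 4 and 1.14, 1.07, 1.04 and 0.97 in KO 1 to KO 4. These ranges overlapped, and the part of RNA quality or library preparation in the gradient was not tested.

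Levels per length were even across most of the set. In WT the mean normalized count per kilobase of mRNA had a median of 41879, with quartiles of 31584 and 52651. The median was 37565 in the large and 45886 in the small subunit. Rplp1 was highest at 99305 per kilobase, followed by Rps14 at 76939 and Rpl32 at 75520, and Rpl13 was close behind at 75252, so the order of the last 3 is not firm. Rps14 (ENSMUSG00000024608, chr18:60747098-60778546), which helps to form the platform of the small subunit, was measured at 32151, 49747, 55496 and 46335 normalized counts in WT 1 to WT 4 and 42994, 66774, 63354 and 60208 in KO 1 to KO 4. Rpl32 (ENSMUSG00000057841, chr6:115805505-115808747) was at 30279.7, 38528, 46163 and 41205 normalized counts in WT 1 to WT 4 and 44048, 62343, 57653 and 59179 in KO 1 to KO 4. Rpl32 rose with a log2 change of 0.52 ± 0.15 and Rps14 did not pass at 0.35 ± 0.18 (limma adjusted p of 0.0409 and 0.254). For Rps14, KO 1 was below WT 2, WT 3 and WT 4.

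Rpl24, Rps10 and Rpl13a were listed far below all the others, at 177, 356 and 1126 per kilobase in WT. The next gene, Rps20, was at 8457, although its length of 3706 bases rests on a single annotated transcript. Rpl24 (ENSMUSG00000098274, chr16:55966275-55971435) was at 95.8, 122, 117 and 144 normalized counts in WT 1 to WT 4 and 112, 195, 144 and 208 in KO 1 to KO 4. Rps10 (ENSMUSG00000052146, chr17:27630418-27636669) was at 171, 153, 153 and 231 normalized counts in WT 1 to WT 4 and 238, 138, 211 and 294 in KO 1 to KO 4. Rpl13a (ENSMUSG00000074129, chr7:45125558-45128761), known as the part of an interferon-induced complex that silences mRNAs, was at 774, 1044, 1706 and 1193 normalized counts in WT 1 to WT 4 and 989, 1977, 1501 and 1431 in KO 1 to KO 4. Rps10 followed the other genes least, being lowest in KO 2, where 72 of the 77 were highest. None of them passed, with log2 changes of 0.43 ± 0.25 for Rpl24, 0.28 ± 0.24 for Rps10 and 0.34 ± 0.22 for Rpl13a (limma adjusted p of 0.350, 0.543 and 0.396).

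These were also the 3 members that share most of their exons with another annotated gene on the same strand. In GENCODE, RPS10-NUDT3 covered 91.6% of the bases of the Rps10 mRNA, Gm28037 covered 71.5% of Rpl24 and Gm45713 covered 59.3% of Rpl13a. In the other 74 genes the shared part was at most 10.7%. These 3 partner genes were not among the genes listed. How the counting treated reads that fit both genes is not given in the sources used here, and its part in the low values was not tested.

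**Figure D4:**
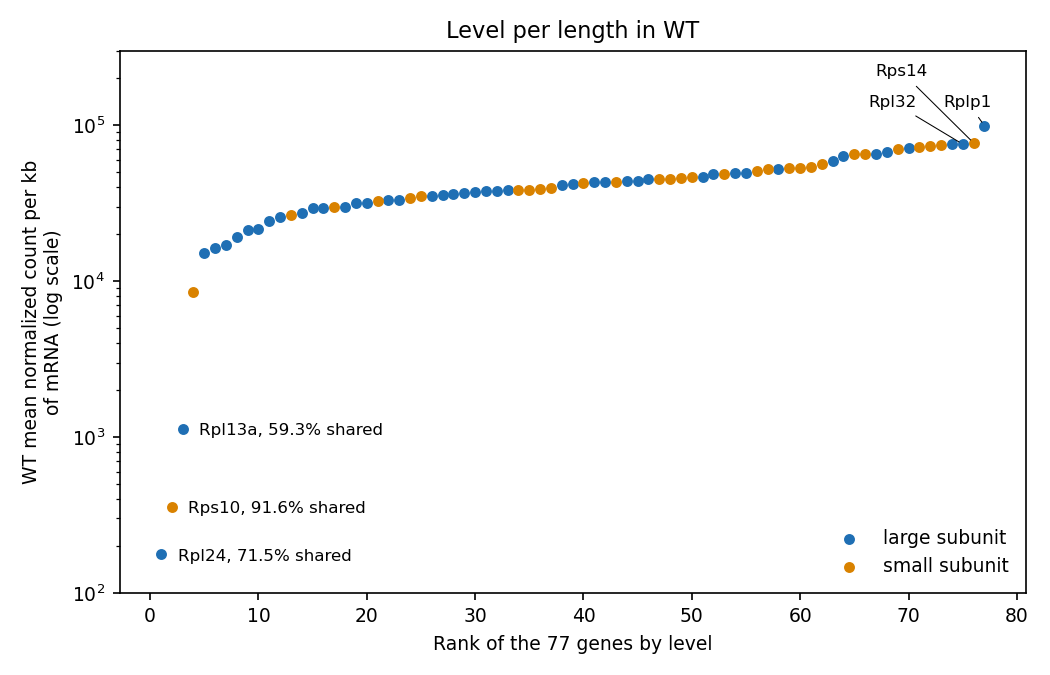
Mean normalized count per kilobase of mRNA in WT (log axis) for the 77 genes in order of level, large subunit blue and small subunit orange. Labels name the 3 highest genes and the 3 lowest with the share of their mRNA that another gene covers on the same strand. Rpl24, Rps10 and Rpl13a stand at 177, 356 and 1126, and the next gene is at 8457.

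Other ribosomal protein genes and close copies outside the rule were not called. Of 11 tested, 0 rose and 0 fell (limma; 2 higher and 1 lower at an unadjusted p under 0.05; edgeR called 0 and DESeq2 1). Rack1, a protein of the head of the small subunit, had 0.48 ± 0.16 (limma adjusted p = 0.0809), and Fau, a small subunit protein made as a fusion, 0.20 ± 0.14 on the log2 scale. Processed copies of ribosomal protein genes, named with the ending -ps, had log2 changes of a like size. Of 181 listed 97 were tested, 2 rose and 0 fell (limma; 14 higher and 0 lower at an unadjusted p under 0.05), with a median log2 change of 0.43. Over all tested genes 4.41% rose, a larger share than the 2 of 97. The 2 were Rpl3-ps1 (0.59 ± 0.12, limma adjusted p = 0.00583) and Rps6-ps4 (0.57 ± 0.17, limma adjusted p = 0.0483). Reads of a parent and its copies can be nearly identical, and 59 of the 77 genes have at least 1 such copy by name, so values of a gene and its copies are uncertain in that respect.

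Of 26 other genes whose mRNAs are known to start with a TOP tract, 10 rose and 0 fell (limma; 20 higher and 0 lower at an unadjusted p under 0.05), with a median log2 change of 0.37. The smallest adjusted p belonged to Gas5, a host gene of small nucleolar RNAs, with a log2 change of 0.68 ± 0.10, and to Impdh2, which encodes the rate-limiting enzyme of guanine nucleotide synthesis, with 0.68 ± 0.10 (limma adjusted p of 0.000432 and 0.000476). They were followed by Npm1, which encodes a nucleolar chaperone (0.69 ± 0.13), the non-coding Epb41l4aos (0.87 ± 0.17) and the elongation factor subunits Eef1g (0.57 ± 0.13) and Eef1b2 (0.67 ± 0.16). Vim and Ybx1 had log2 changes of -0.07 ± 0.10 and -0.06 ± 0.10 and did not pass. Without the 3 libraries highest in macrophage markers 2 of the 26 were called, and with the marker mean as a covariate 5. Over all tested genes 1.206% and 1.67% were called higher in these fits, smaller shares than the 2 and the 5 of 26.

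Of 19 tested genes on a list of chaperones, importers and other factors that handle ribosomal proteins or ribosomal particles, 5 rose and 0 fell (limma). At an unadjusted limma p under 0.05, 9 were higher and 0 lower, and the median log2 change was 0.21. Rrs1, which loads the complex of Rpl5, Rpl11 and 5S RNA, rose from 1279 ± 58.8 to 1838 ± 228 (SD, n = 4 each; log2 change 0.52 ± 0.11, limma adjusted p = 0.00564). The importin genes Ipo5, Ipo7 and Ipo4 had log2 changes of 0.41 ± 0.09, 0.48 ± 0.13 and 0.48 ± 0.14, and Grwd1, a chaperone of Rpl3, had 0.44 ± 0.13 (limma adjusted p of 0.0106, 0.0249, 0.0471 and 0.0467). Calls among the 19 fell to 0 without the 3 libraries highest in macrophage markers and with the marker mean as a covariate (limma; 4 and 5 higher at an unadjusted p under 0.05). Leaving out 1 library gave 2 to 4 calls, with 2 without WT 3 or KO 3.

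The genes lie on 19 chromosomes, 14 of them on chromosome 7 and 4 on the X chromosome. Small nucleolar RNA genes, which are processed from introns, lay within 30 of the 77 genes, 58 in all. Of these 30 host genes 11 rose, beside 20 of all 77 genes and 4.41% of all tested genes. Their median log2 change was 0.48, against 0.43 in the genes without one. Whether host genes differ from the others in the number called was not tested.

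Macrophage markers also differed between the groups. Of the 20 markers listed, 18 could be tested, 8 rose (Csf1r, Cd68, Lyz2, C1qa, C1qb, C1qc, Vcam1 and Mrc1) and Axl fell. The number that rose was 1 without KO 2 or KO 3, 2 without WT 4, 3 without WT 3, and 12 without WT 2 or KO 1. Their summed level was 1583 to 3122 normalized counts in WT and 2165 to 7064 in KO 1 to KO 4. Mertk, Fcgr1, Cd14, Marco, Timd4, Spic and Cd163 were at 0 in at least 1 library. The summed level of the 8 Treg markers was 78115 to 88699 in WT and 72834 to 80737 in KO 1 to KO 4. Among them Il2ra, the IL-2 receptor alpha chain, rose and Ikzf2, which encodes Helios, fell (limma; 1 higher and 5 lower at an unadjusted p under 0.05). The 5 B cell markers summed to 358 to 537 in WT and 166 to 305 in KO 1 to KO 4, without overlap. Of the 2 that could be tested, Cd79b fell (log2 change -1.17 ± 0.23, limma adjusted p = 0.00407) and Cd79a, at 0.73 ± 0.37, did not pass. The part of the Treg and B cell markers in the ribosomal protein result was not tested. The marker mean was highest in KO 2, KO 3 and WT 2. WT 2 had a ribosomal protein share of 12.0%, close to the WT mean. WT 3, with a marker mean of 4.53, had the highest WT share at 13.7%, and KO 4, with a marker mean of 6.01 between those of KO 1 (5.76) and WT 2 (6.55), had 16.1%.

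With those 3 libraries left out, which leaves 3 WT and 2 labelled Pdpk1 KO, all 77 log2 changes were positive with a median of 0.35, and 0 genes passed (limma; 3 at an unadjusted p under 0.05). Without those libraries 1.206% of all tested genes were called higher. With the marker mean as a covariate 1.67% of all tested genes were called higher. The median of the 77 was then 0.21, 68 of the 77 were positive and 0 passed (limma; 4 at an unadjusted p under 0.05). The 9 that turned negative were Rps27 (-0.21), Rpl35a, Rpl34, Rplp1, Rplp2, Rps2, Rps21, Rpl10 and Rpl13a. Group and marker mean rise together in these libraries, so the effects of group and marker level cannot be told apart in this fit. The share of reads from mitochondrial genes was 1.93% to 2.38% in WT and 1.82% to 2.42% in KO 1 to KO 4, and these ranges overlapped.

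**Figure D5:**
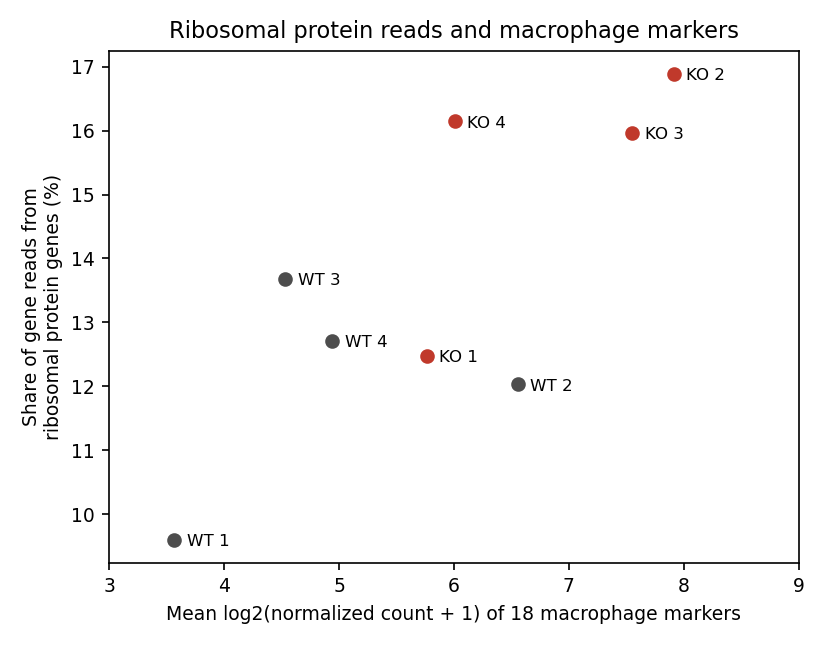
Share of gene reads from the 77 ribosomal protein genes (%, vertical) against the mean log2(normalized count + 1) of the 18 tested macrophage markers (horizontal), 1 point per library, WT grey and labelled Pdpk1 KO red. KO 2 and KO 3 are high on both, WT 1 is low on both, and WT 2, WT 3 and KO 4 depart from that order.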

How the data were processed

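RNA-seq of polyadenylated RNA from 8 sorted Treg libraries (4 WT, 4 labelled Pdpk1 KO) was used. The authors deposited a table of signal values in which the read count of a gene had been divided by the library's DESeq2 size factor. Per the submitters' processing notes the tools were Trimmomatic 0.39, STAR 2.7.6a, SAMtools 1.11, featureCounts of Subread 2.0.1 and DESeq2 1.21, with the build GRCm38. The strand setting, the annotation release and the treatment of reads that fit several genes are not given in the sources used here. Reads of overlapping or antisense genes can therefore not be told apart.

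All deposited values (100%) were whole multiples of the value of 1 read within a tolerance of 0.001, which gave whole reads and the depth. Of 19826 genes, 19785 matched a symbol in GENCODE M21 and 41 did not. Genes listed had at least 11 reads in all. Values were taken as log2(value + 1). Genes with a value of 10 or more in at least 4 libraries (13847) were tested with limma 3.58.1 in R 4.3.3 (lmFit, eBayes with trend). The test was two-sided, adjusted by Benjamini-Hochberg over all of them, with a threshold of 0.05. All 8 libraries entered the fit, with no covariate. The fit was tested on simulated data.

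The genes, the lists, the rule for named genes and the alternatives were chosen with earlier results of these data known. Named were 15 genes by role, up to 5 per subunit with the smallest adjusted p, 3 per subunit with the lowest log2 change, and the 3 highest and 3 lowest per kilobase in WT. Each other list gave up to 6 named genes, those that passed with the lowest adjusted p, or its 2 most abundant genes if none did. Named outside the rule, after their values had been seen, were the other genes past the threshold and the other genes named with values. Same-numbered replicates deviated together more than differently numbered ones for numbers 1, 2 and 4, but not for number 3. No pairing was used in the main fit. Some genes of the set and of the lists are not reported here by name, and the counts include them.

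Length was that of the shortest coding transcript of the best principal rank in GENCODE. The longest one had been used first and was replaced after its lengths and the resulting values had been seen, which put Rps14 and Rpl32 in place of Rpl13 and Rps27 among the 3 highest per kilobase. The split by length, the motifs other than the TOP tract and the overlap of annotated exons were also added after values had been seen. Alternatives were edgeR 4.0.16 and DESeq2 1.42.0 on the recovered reads, other scalings, pseudocounts and filters, a replicate block, the macrophage marker mean as a covariate and the omission of libraries.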

Additional observations from a re-analysis of the deposited data

Results flagged for a closer look

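In groups of 4, a library was singled out where its gap to the nearest other library exceeded 0.829 of the group's range, which chance gives in about 1 in 20 groups. Of 72 groups checked (29 named genes and 7 library measures, in each of the 2 groups), 7 were singled out, and all 7 were replicate 1. The 72 groups share the same 8 libraries, in which the genes move together, so they are not independent. The 7 are therefore not separate events to set against 1 in 20. KO 1 was far below the other KO libraries for Rplp1 at 41035, Rpl34 at 17248, Rps27a at 22267 and Rps29 at 18046 normalized counts. The ratio of large to small subunit reads was far above the other replicates in WT 1 (1.38) and in KO 1 (1.38). The mean log2 level of large minus small subunit genes was nearest to 0 in WT 1, at -0.22.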

How the results depend on the processing

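Counts of called genes are given for all 77, the large and the small subunit, and were 20, 16 and 4 in the fit as reported. They were 50, 30 and 20 with DESeq2, 9, 9 and 0 with quantile normalization, 0, 0 and 0 with the macrophage marker mean as a covariate, and 0, 0 and 0 when the 3 libraries with the highest marker mean were left out (limma; 7 small subunit genes were higher and 1 lower at an unadjusted p under 0.05 with quantile normalization, and 1 was higher in each of the last 2 fits). Of all tested genes 6.12% were called higher with DESeq2, 4.53% with quantile normalization, 1.67% with the covariate and 1.206% without the 3 libraries. Leaving out 1 library gave 3 to 58, 2 to 36 and 1 to 22. The replicate block gave 73, 44 and 29, with 8.98% of all tested genes called higher. The deviations of same-numbered libraries correlated at 0.22, 0.09, 0.05 and 0.11. For each WT library the highest correlation with a differently numbered KO library was -0.03, 0.004, 0.11 and 0.03. The numbers were not taken to pair the samples, and whether they mark a pairing was not tested. edgeR (26), pseudocounts of 0.5 (18) and 5 (19), scaling outside the 77 genes (18) and no filter (23) stayed within 1.5 times the count, and no alternative called a gene lower. In these fits, in that order, 4.33%, 4.31%, 4.72%, 3.52% and 2.96% of all tested genes were called higher. The median log2 change of the 77 genes moved from 0.46 to 0.16 with quantile normalization and to 0.21 with the covariate. Log2 changes turned negative with quantile normalization for Rps2 (-0.17), Rpl10 (-0.031), Rpl41 (-0.020) and Rplp1 (-0.0085), and with the covariate for Rps27 (-0.21), Rpl35a (-0.092), Rps21 (-0.023), Rpl34 (-0.082), Rplp1 (-0.069), Rplp2 (-0.066), Rps2 (-0.039), Rpl10 (-0.020) and Rpl13a (-0.00093). The causes were not tested. Among the 29 named genes, 416 of the values under alternatives kept direction and side of the threshold, 71 lost the call, 25 gained it and 10 changed sign. The median log2 change of the longer minus the shorter genes was 0.10, and 0.06 with the longest transcript as the length.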
